A study of Caenorhabditis elegans with 2 samples.

Results

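The loci of tct-1 and ubl-1, protein-coding genes of Caenorhabditis elegans, hold short noncoding RNA genes, and both hosts drew notice because their expression values and their binding peaks did not tell the same story. The set described here consists of 6 of the 41560 gene names in the deposited expression tables. It comprises tct-1 with F25H2.14 and F25H2.16, and ubl-1 with H06I04.8 and H06I04.9. With them go all deposited peaks that overlap these loci by 1 base or more, namely 8 of the 77986 peaks of the CAR-1(FL) list and 15 of the 105255 peaks of the CAR-1(dSm) list. The genes were chosen by their FPKM values and their peaks in these same tables, so those values are given as a description and no test is made of them.

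The measurements come from seCLIP-seq, which crosslinks RNA to a protein, pulls the protein down and sequences the attached RNA from one end. CAR-1, the protein studied, belongs to the LSm14 family, whose members bind RNA and collect in P granules and processing bodies. Strain CZ25180 gave the CAR-1(FL) library and strain CZ26430 gave the CAR-1(dSm) library, 1 library each, and both were pulled down with GFP-trap, a single-domain antibody against GFP on beads. The sources used here do not give the age of the animals, the promoter behind each tagged protein, or what the label dSm stands for. With no replicate, every difference below describes these libraries and carries counting error only. Without an input library in the comparison, an RNA's abundance and its recovery by the pull-down cannot be told apart, nor can fewer cells of a type and less RNA per cell.

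tct-1 encodes the translationally controlled tumour protein, a conserved protein that binds translation elongation factors. ubl-1 encodes a ubiquitin-like protein joined to the small-subunit ribosomal protein S27a. Small nucleolar RNAs (snoRNAs) guide the chemical modification of ribosomal and other RNAs in the nucleus. In animals they often lie within genes for the translation machinery, from whose transcripts they are cut.

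On the ce10 build tct-1 spans chr I from 10569123 to 10569923, a stretch of 801 bases. The snoRNA gene F25H2.14, 226 bases long, lies wholly inside it from 10569176 to 10569401 and fills 28.2% of the host. The noncoding RNA gene F25H2.16 runs from 10569075 to 10569206. It begins 48 bases before the host, shares 84 bases with it and shares 31 bases with F25H2.14. ubl-1 spans chr III from 3068327 to 3069153, which is 827 bases. Inside it lie the snoRNA genes H06I04.9, from 3068478 to 3068554 (77 bases), and H06I04.8, from 3068798 to 3068875 (78 bases), with 243 bases between them. The gene types are those of RefSeq, where the name ubl-1 itself was not matched. The expression tables give no strand and no exons, so whether the nested genes lie in introns or exons of the hosts was not examined.

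All 23 peaks at these loci touched a nested RNA gene and none lay in the rest of either host. At tct-1 the 7 peaks of the CAR-1(FL) list ran from base 10569178 to 10569356 and the 10 peaks of the CAR-1(dSm) list from 10569178 to 10569355. They covered 166 and 149 bases, all within F25H2.14. The last 45 and 46 bases of that snoRNA gene, and the 522 bases of tct-1 beyond it, held no peak in either list. F25H2.16 was touched by 2 peaks per list, each of which also lay in F25H2.14, and its first 103 bases held none. At ubl-1 the CAR-1(FL) list had a single peak, on the last 43 bases of H06I04.8. The CAR-1(dSm) list had 4 peaks on the same snoRNA gene and 1 on H06I04.9. The peak nearest the host's end was the only one to leave a nested gene, running 3 bases past the end of H06I04.8. Peaks thus covered 20.7% and 18.6% of tct-1 in the lists of CAR-1(FL) and CAR-1(dSm), and 5.20% and 10.04% of ubl-1. All 23 peaks were on the plus strand.

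**Figure D1:**
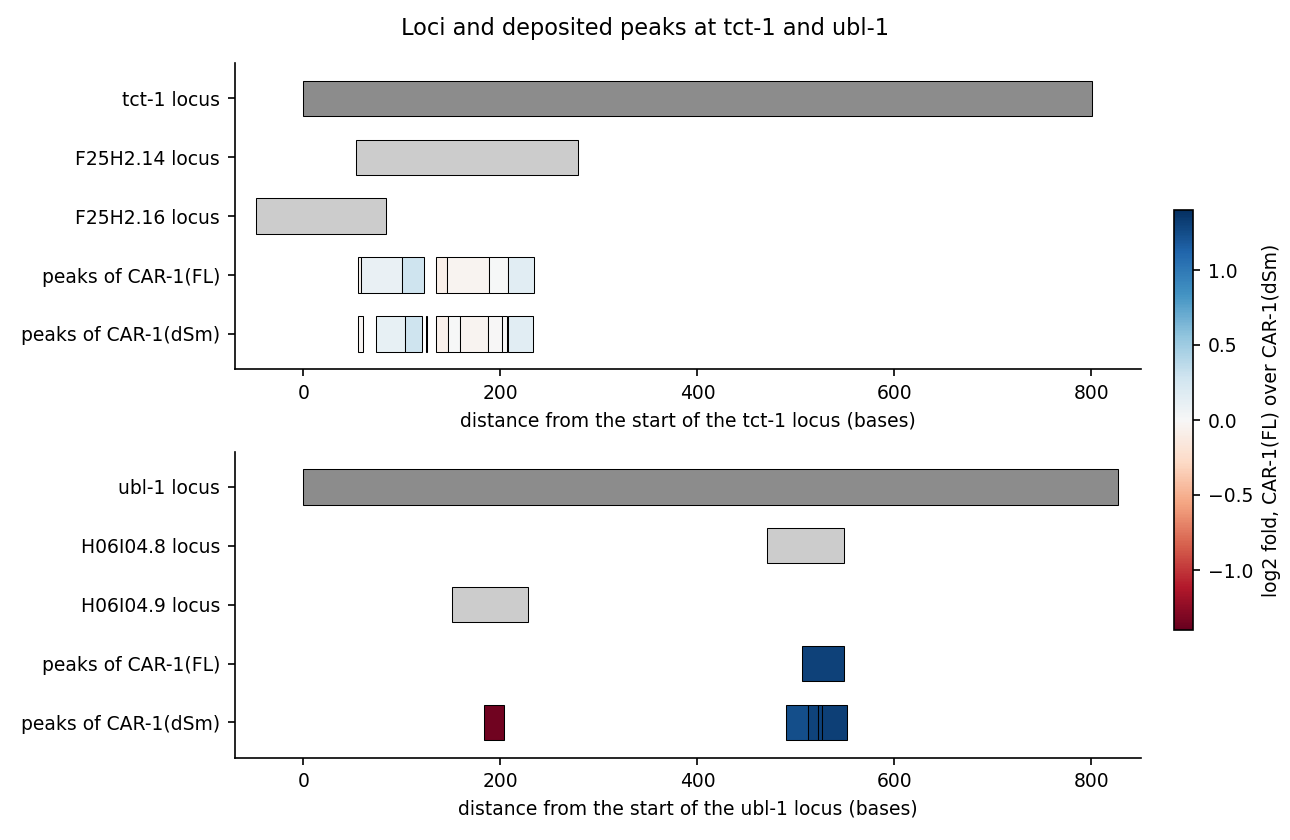
Loci (grey bars) and deposited peaks (coloured boxes) along tct-1 (top) and ubl-1 (bottom), by distance in bases from the host's start; colour gives the authors' log2 fold with CAR-1(FL) as the numerator. All 23 boxes fall under a nested gene, those of F25H2.14 are near 0 and those of H06I04.8 lie between 1.24 and 1.32.

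The reads behind a peak could be read back from its deposited fold and p-value. Totals of 4022150 reads in the CAR-1(FL) library and 5470606 in the other account for those values, which makes CAR-1(dSm) 1.36 times as deep. For 9 of the 23 peaks both read numbers were settled. For the other 14 the fold fixed only the ratio in lowest terms, so their read numbers are the fewest possible. Nothing in the sources used here says whether a read that spans several peaks was counted in each, so reads were not added over peaks.

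By its peaks, the F25H2.14 snoRNA was recovered at nearly the same level from both libraries. Its best-covered settled peak lay at its start, from 10569181 to 10569222, with 3699 reads with CAR-1(FL) and 4668 with CAR-1(dSm). Per 1000000 reads these are 920 (exact binomial 95% interval 890 to 949.8) and 853 (829 to 878), a 1.08-fold difference (1.03 to 1.13). The adjoining peak, from 10569223 to 10569244, held 2791 and 3109 reads and had the highest fold of the CAR-1(FL) list at tct-1, 1.22 (1.16 to 1.29), with an authors' −log10 p of 13.7. The peak farthest into the host, from 10569331 to 10569356, held 2907 and 3547 reads, a fold of 1.11 (1.06 to 1.17). These 3 peaks were the only ones at tct-1 with an authors' −log10 p of 3 or more. In either list that value is above 0 only for peaks higher in the list's own library. Between them the recovery was even: the peak from 10569311 to 10569330 held 1715 and 2326 reads, 426 per 1000000 reads (406 to 447) against 425 (408 to 443).

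The CAR-1(dSm) list cut the same stretch of F25H2.14 differently. Both lists compare reads of the same 2 libraries, so likeness between their folds is not separate evidence. With CAR-1(FL) as the numerator, the 10 log2 folds of the CAR-1(dSm) list ran from −0.07 to 0.29, with 5 above and 5 below 0. The highest, 0.29, again stood at 10569226 to 10569242, where the other list had its own highest at this host. The peak from 10569282 to 10569309 held 1831 reads with CAR-1(FL) and 2554 with CAR-1(dSm), a 1.03-fold difference towards CAR-1(dSm). So along 1 snoRNA gene the folds did not all go one way, and in linear terms they stayed between 0.947 and 1.22.

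The H06I04.8 snoRNA went one way along its whole covered length. The CAR-1(FL) peak from 3068833 to 3068875 held at least 5794 reads with CAR-1(FL) and at least 3173 with CAR-1(dSm), 2.48 times as many per total reads. Counting error leaves a 95% interval of 2.38 to 2.59 at those fewest reads, and the authors' −log10 p was at its cap of 400. The 4 peaks of the CAR-1(dSm) list on this gene compare the same libraries and are not separate evidence. They were higher with CAR-1(FL) by folds of 2.37, 2.46, 2.47 and 2.49 in order from the gene's start to its end. The last of them, from 3068853 to 3068878, held at least 11541 reads with CAR-1(FL) against at least 6299 with CAR-1(dSm). Every fold on H06I04.8 thus lay above every fold on F25H2.14, in both lists.

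The H06I04.9 snoRNA was close to the limit of detection. Its single peak, in the CAR-1(dSm) list from 3068510 to 3068530, rested on 7 reads from CAR-1(dSm) and 2 from CAR-1(FL). That is 1.28 per 1000000 reads (0.514 to 2.64) against 0.497 (0.0602 to 1.80). The fold of CAR-1(FL) over CAR-1(dSm) was 0.389, with an interval of 0.0394 to 2.04 that includes no difference. Within ubl-1, then, nearly all reads in peaks lay on H06I04.8.

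**Figure D2:**
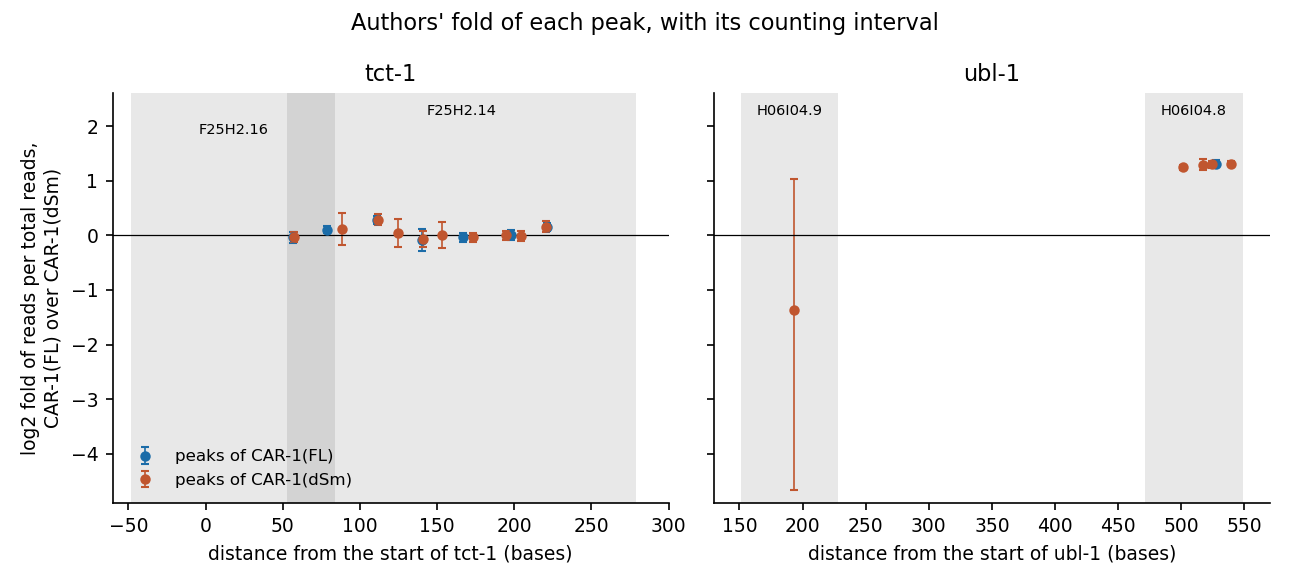
Authors' log2 fold of each peak, with CAR-1(FL) as the numerator, by distance in bases from the host's start; bars are 95% counting intervals (at the fewest possible reads where these were not settled) and grey bands are nested genes, darker where they overlap. Peaks of F25H2.14 stay between −0.08 and 0.29, those of H06I04.8 between 1.24 and 1.32, and the 7-read peak of H06I04.9 has an interval across 0.

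Thresholds were set at 3 for the authors' −log10 p and at 1 for their log2 fold in favour of the list's own library. The CAR-1(FL) list had 1 of its 8 peaks past both, the one on H06I04.8, where 0.224% of all its peaks passed. The CAR-1(dSm) list had 0 of 15, where 1.99% passed. With the log2 fold raised to 3 no peak of the set passed, against 0.0167% of all CAR-1(FL) peaks and 0.119% of all CAR-1(dSm) peaks. By position the lists matched: on the same strand, all 8 peaks of the first list met a peak of the second, and 13 of the 15 of the second met one of the first. The exceptions were the H06I04.9 peak and a peak of 1 base at 10569247 in F25H2.14.

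The expression tables gave another account of the same loci. They list FPKM, which is fragments scaled by transcript length and by the fragments in the library, each with bounds below and above. F25H2.14 stood at 6738 with CAR-1(FL) (bounds 6287 to 7189) and at 4420 with CAR-1(dSm) (4125 to 4716). The bounds lay apart, and the level was 1.52-fold higher with CAR-1(FL), where its peaks gave at most 1.22. The bounds imply 893 and 896 fragments, at 7.55 FPKM per fragment with CAR-1(FL) and 4.93 with CAR-1(dSm). The 1.52 thus came from this conversion. Peak folds are taken per total reads instead. On that scale the implied fragments of F25H2.14 came to 222 per 1000000 reads with CAR-1(FL) and 164 with CAR-1(dSm), so they too were higher with CAR-1(FL). H06I04.8 stood at 453537 with CAR-1(FL) (366254 to 540820) and at 101310 with CAR-1(dSm) (67655 to 134965). This was 4.48-fold higher with CAR-1(FL), where its peaks gave 2.37 to 2.49. Its implied fragments came to 26.9 per 1000000 reads with CAR-1(FL) and 6.63 with CAR-1(dSm). F25H2.16 and H06I04.9 were listed at 0 in both libraries, although peaks lay on both. A listed 0 can be a failed estimate, and for F25H2.16 those peaks were shared with F25H2.14.

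H06I04.8 has the highest FPKM of the set, while its bounds imply few fragments. Its values stood for 108 implied fragments with CAR-1(FL) and 36.2 with CAR-1(dSm), fewer than F25H2.14 in both. In CAR-1(FL) 1 implied fragment was worth 4199 FPKM at H06I04.8 and 7.55 at F25H2.14. Across loci of 60 to 100 bases the median was 759 FPKM per implied fragment (43 genes, 247 to 16139), and across loci of over 200 and up to 300 bases it was 5.15 (109 genes). Peak reads ran well above the implied fragments. For each library, its reads in the best-covered peak of its own list were divided by the gene's implied fragments. For H06I04.8 this ratio was at least 53.6 with CAR-1(FL) and at least 174 with CAR-1(dSm), from different peaks. For F25H2.14 the ratios were 4.14 and 2.85, also from different peaks. Taken the same way over all genes with 5 or more implied fragments, the median ratio was 1.77 (2528 genes) and 2.15 (3291 genes), with unsettled peaks taken at their fewest reads.

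The host genes showed the widest gap in FPKM between libraries. tct-1 was listed at 0 with CAR-1(FL) and stood at 58.6 with CAR-1(dSm), with bounds of 49.1 to 68.0 from 154 implied fragments. ubl-1 stood at 410 with CAR-1(FL) (170.5 to 650.1) and at 64.7 with CAR-1(dSm) (25.3 to 104), a 6.34-fold difference with bounds apart. It rested on only 11.7 and 10.8 implied fragments, or 2.91 and 1.97 per 1000000 reads. Most of the 6.34 thus lay in the FPKM per implied fragment of ubl-1, 35.05 with CAR-1(FL) and 5.998 with CAR-1(dSm). Why these factors differ was not tested. No peak fell outside the nested genes in either host, so no peak gives a host level of its own. Differences, CAR-1(FL) minus CAR-1(dSm), were also taken on the log2(FPKM + 1) scale, where the 1 shrinks changes of low genes. They came to −5.90 for tct-1, 2.65 for ubl-1, 0.61 for F25H2.14 and 2.162 for H06I04.8. A gene counts as measured when either library gives it an FPKM of 1 or more. Among the 4 measured members, 2 were higher with CAR-1(FL) by 1 unit or more, as were 14.3% of all 4361 measured genes. A single member, tct-1, was higher with CAR-1(dSm) by that much, as were 15.2% of all, and it was listed at 0 in the other library.

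The authors' deposited table of their comparison shows neither host gap. That table carries FPKM values rescaled by the authors. At an FPKM of 10 or more its values were 5.13 times those of the library table with CAR-1(FL) (707 genes) and 5.25 times with CAR-1(dSm) (703 genes), with both quartiles at those same values. In the authors' deposited table tct-1 stood at 265 with CAR-1(FL) and 307 with CAR-1(dSm), 1.16-fold higher with CAR-1(dSm) (p-value 0.8999, q-value 0.969). Divided by the common factor, the CAR-1(FL) value is 51.5, where the library table lists 0. The CAR-1(dSm) value comes to 58.6, as in the library table. For ubl-1 the authors' deposited table gives 2106 with CAR-1(FL) and 1858 with CAR-1(dSm), 1.13-fold higher with CAR-1(FL) (p-value 0.913, q-value 0.972). Here the CAR-1(FL) value matches its library table and the CAR-1(dSm) value, 354 after division, is 5.47 times the one listed there.

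For the nested genes both kinds of table were close. F25H2.14 with CAR-1(FL) came to 6293 after division, 0.934 of its library value, and the other snoRNA values matched theirs. In the authors' deposited table H06I04.8 was 4.38-fold higher with CAR-1(FL) (p-value 0.0535, q-value 0.669). In the authors' deposited table F25H2.14 was 1.39-fold higher (q-value 0.883). None of the 3278 genes tested in that table was marked significant (0%), and its test compares 2 libraries.

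**Figure D3:**
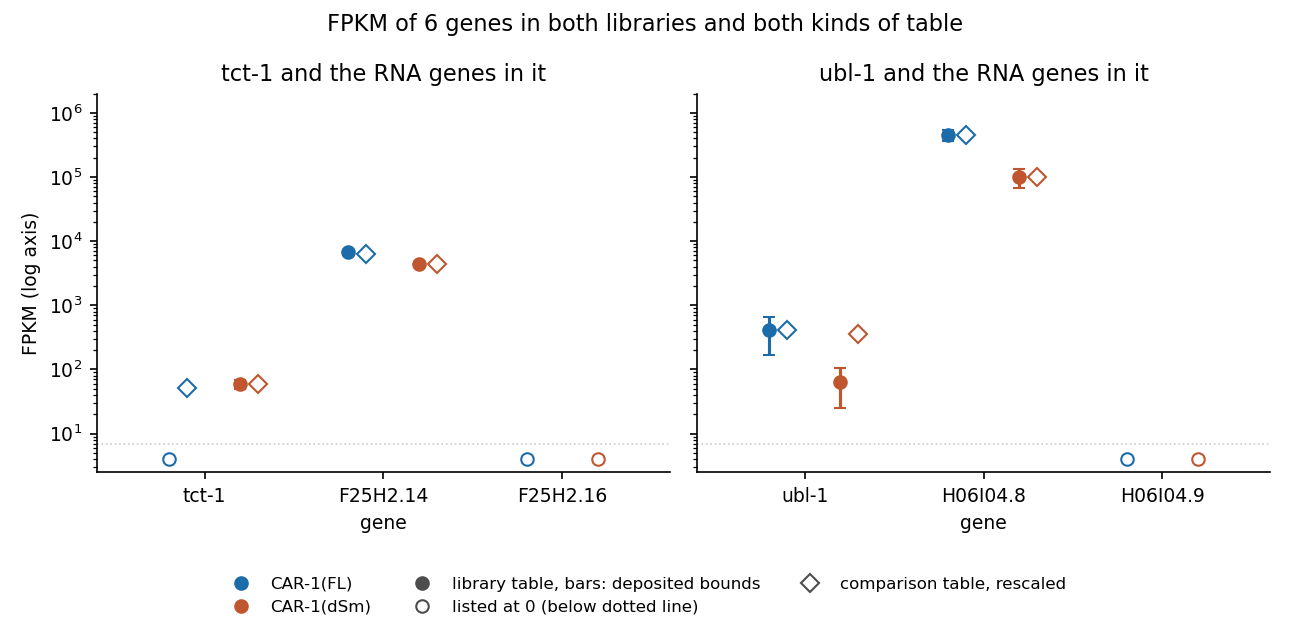
FPKM on a log axis for tct-1 and ubl-1 with their RNA genes in both libraries; filled circles are the library tables with the deposited bounds, open circles below the dotted line are genes listed at 0, and diamonds are the authors' deposited comparison table divided by its common factor. The tables part for tct-1 with CAR-1(FL) (51.5 against a listed 0) and for ubl-1 with CAR-1(dSm) (354 against 64.7).

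Such a disagreement between the tables was uncommon. Among 675 genes with a single entry and at least 10 FPKM after division with CAR-1(FL), 17 were listed at 0 in the library table and 11 more stood over 2 times above it, 4.15% in all. In CAR-1(dSm) the counts were 15 and 21 of 672 genes, 5.36%. tct-1 was among those listed at 0 with CAR-1(FL), and ubl-1 among those over 2 times above with CAR-1(dSm). In the other direction, 13 genes with CAR-1(FL) and 18 with CAR-1(dSm) stood under 0.5 times their library value. Within 2-fold lay 93.9% and 92.0% of the genes.

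Implied fragments of the library tables were also added over host and nested genes. The tct-1 locus had 893 with CAR-1(FL) and 1050 with CAR-1(dSm), which is 222 and 192 per 1000000 reads, 1.16-fold higher with CAR-1(FL). The CAR-1(FL) sum leaves out the host, which is listed at 0 there and stood at 51.5 FPKM by the authors' deposited table after division. With CAR-1(dSm) the host made up 14.7% of the sum. The ubl-1 locus had 120 and 47.0, or 29.8 and 8.599 per 1000000 reads, 3.46-fold higher with CAR-1(FL), with host shares of 9.78% and 22.9%. That sum moved with the table, in a comparison added after the data had been seen. On the values of the authors' deposited table, each library kept its own FPKM per implied fragment of ubl-1. This was 35.05 with CAR-1(FL) and 5.998 with CAR-1(dSm). Host values of 410 and 354 FPKM after division thus became 11.7 fragments with CAR-1(FL) and 59.0 with CAR-1(dSm). The locus fold was then 1.71 and the host's share with CAR-1(dSm) 61.9%. Both values rest on that unlike conversion.

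Hosts of short loci were also counted over the whole tables. Of 3218 loci that wholly contain a locus of at most 200 bases, ubl-1 among them, 1801 had peaks, and 819 of those (45.5%) were listed at 0 in 1 or both libraries. Of the 819, 439 were listed at 0 in both, whereas tct-1 was at 0 in 1 library and ubl-1 in neither. No share at 0 over all genes with peaks is given here, so the 45.5% cannot be read as a trait of hosts. Of the 1801, a peak touched a nested locus in 635, and in 197 of these (31.0%) no peak lay outside the nested loci. tct-1 does not enter this count because F25H2.14 is longer than 200 bases and F25H2.16 starts before the host. A count set after the data had been seen took protein-coding hosts of nested loci of 60 to 500 bases, which includes both. Here 481 hosts had a peak on a nested locus and 99 of them (20.6%) had no other peak. Of the 62 hosts with 8 or more peaks on nested loci, 41 had none elsewhere, tct-1 being one with 17. Of the 99, 13 were listed at 0 in a single library, as tct-1 was. The hosts listed at 0 with the most peaks were of another kind: the top 6 were loci of 57374 to 96474 bases with 150 to 397 peaks, of which 0 to 22 touched a nested locus.

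Ribosomal protein genes allow a closer comparison, since ubl-1 is one of them. With the same 60 to 500 base limits, 12 genes named rps or rpl, with ubl-1, contained a nested locus, and each had a peak on one. In 10 of the 12 every peak touched a nested locus. The exceptions were rpl-2, with 5 of 18 peaks elsewhere, and rpl-7, with 4 of 13. Among small-subunit genes, the 27 without a nested locus had 6 to 41 peaks over both lists (median 21). These covered 32.8% to 71.5% of the locus in the CAR-1(FL) list and 37.6% to 71.1% in the CAR-1(dSm) list. The 4 others with nested loci, rps-12, rps-13, rps-23 and rps-29, had no peak outside them. Their covered share was 14.6% to 23.3% in the CAR-1(FL) list and 14.9% to 27.1% in the CAR-1(dSm) list. ubl-1, at 5.20% and 10.04%, was the least covered of all 32 in both lists. These 4 hosts were not missing from the expression tables. For example, rps-12 stood at 81.0 FPKM with CAR-1(FL) and 87.1 with CAR-1(dSm), and rps-29 at 169.9 and 88.6 from fewer than 10 implied fragments each, with no peak in the host outside its snoRNA gene.

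**Figure D4:**
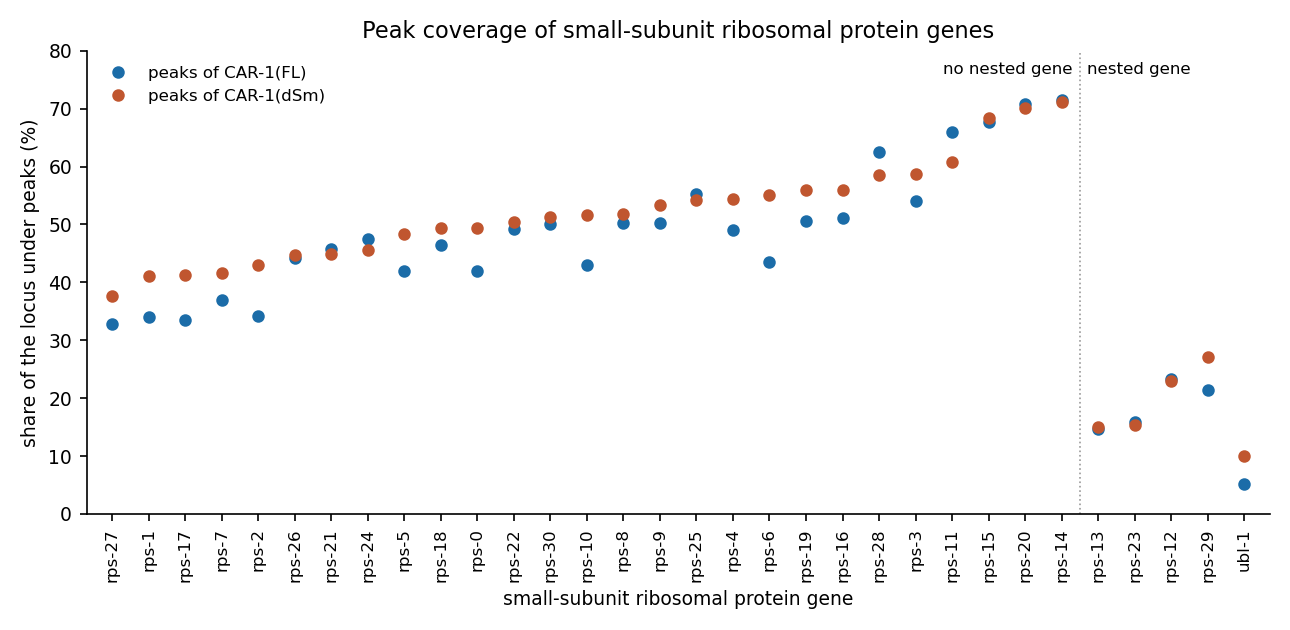
Share of each small-subunit ribosomal protein locus covered by peaks, in percent, for the peak lists of CAR-1(FL) and CAR-1(dSm); genes right of the dotted line contain a nested locus of 60 to 500 bases. The 27 genes without one lie at 32.8% or above, the 5 with one at 27.1% or below, and ubl-1 is lowest at 5.20% and 10.04%.

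The fold of H06I04.8 can be set beside those of other RNAs nested in ribosomal protein genes. Outside ubl-1, 18 such genes carried peaks, some of them overlapping each other and sharing peaks. Their median log2 folds per gene, CAR-1(FL) over CAR-1(dSm), ran from −0.12 to 0.77, with a median of 0.31 and 14 above 0. That of H06I04.8 was 1.304 over its 5 peaks. The highest of the others was mir-353, a microRNA gene in rpl-24.1, at 0.77. The small-subunit genes without a nested locus had median folds from −0.55 to 0.18, with 1 of 27 above 0. H06I04.8 had the shortest locus here, at 78 bases against 110 to 221 bases for the other 18.

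Differences in the library tables were also taken over 3 wider gene groups, as a description. ubl-1 belongs to the ubiquitin and small-subunit groups and was chosen by its own values, so its difference is not set against their medians. Of 10 ubiquitin and ubiquitin-like genes 7 were measured: 2 higher with CAR-1(FL), 1 higher with CAR-1(dSm) and 4 within 1 unit. Over all 4361 measured genes these shares were 14.3%, 15.2% and 70.5%. Their median difference was −0.20 on the log2(FPKM + 1) scale, beside 0.07 over all 4361 genes. ubl-1 itself was one of the first 2. The other was ufm-1, a ubiquitin-like modifier, at 13.0 against 4.24 with overlapping bounds. ubl-1 also enters the median, and its difference was only 0.18 by the authors' deposited table, so these counts give no result about the group. The 1 gene higher with CAR-1(dSm) stood at 1.19 there, from 1 implied fragment, and was listed at 0 with CAR-1(FL). The polyubiquitin gene ubq-1 was 1.54-fold higher with CAR-1(dSm), at 17.1 against 11.1 with bounds apart, and the SUMO gene smo-1 stood at 21.4 with CAR-1(FL) and 24.9 with CAR-1(dSm).

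TCTP is known to bind elongation factors, and the next group took translation elongation genes at large, whether or not TCTP binds their products. All 8 of these genes found in the tables were measured, with a median difference of −0.22. Within 1 unit lay 7 (87.5%), beside 70.5% of all measured genes, and 0 were past it towards CAR-1(dSm). The exception was iff-2, an eIF5A gene, at 4.52 with CAR-1(FL) and 1.69 with CAR-1(dSm) with overlapping bounds. The eEF2 gene eef-2 stood at 47.4 and 57.1, 1.20-fold higher with CAR-1(dSm) with bounds apart. Across the 32 small-subunit ribosomal protein genes the median was −0.13 and 30 (93.8%) lay within 1 unit. Besides ubl-1, only rps-13 was past 1 unit, at 5.07 with CAR-1(FL) and 11.3 with CAR-1(dSm) with overlapping bounds, and rps-24 was 1.69-fold higher with CAR-1(FL) with bounds apart (103 against 61.0).

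As a check of the labels, car-1 itself stood at 45.2 FPKM with CAR-1(FL) and 94.3 with CAR-1(dSm), in the library tables. That separates the libraries without showing which is which.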

How the data were processed

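1 seCLIP-seq library each of CAR-1(FL) and CAR-1(dSm) was compared, grouped by sample title. Per the submitters' processing notes, UMI-tools, cutadapt, STAR, SAMtools and the build ce10 were used; the sources used here name no peak caller or annotation. From their values, the authors' peak lists hold a −log10 p-value, cut off at 400, and a log2 fold over the other library. Per the file headers, the authors deposited FPKM tables in Cufflinks layout and a comparison table in Cuffdiff layout with a log2 fold, p-value and q-value.

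Total reads were found as the whole numbers that fit the folds and p-values of 505 peaks, with a median relative misfit of 1.30e-07. Each peak's fold then gave its reads in lowest terms, and its p (Fisher's exact test below 5 reads, Yates-corrected chi-square otherwise) their multiple, within a relative tolerance of 0.0001. In simulated data 559 of 559 pairs were recovered, but their p-values were made with the same formula, so this checks the arithmetic only. In the files 95.3% and 100% of 1000 peaks per list were recovered. Those peaks were drawn from ones whose −log10 p was neither near 0 nor near its cap. The rates do not cover the rest, and in this set 9 of 23 peaks were settled. A recovered 1 in the opposite library may be a true 0. Implied fragments are the square of 2 × FPKM / (upper bound − FPKM), taking the bounds as 2 standard errors of a count. Fold intervals are 95% exact binomial intervals and cover counting error only.

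Starts are 1-based; table loci were read as counted from 0, since lengths then equal RefSeq's for 91.8% of 21899 short loci. RefSeq (WBcel235) served for gene types only, matching 41117 of 41560 names; ribosomal names without a match were taken as protein-coding. Hosts of over 100000 bases were left out, and rows of 1 name were summed. Peaks were assigned without regard to strand. No p-value was computed with 1 library per group. Members and lists were chosen with earlier results of these data known. Named always were the 6 members and car-1; of the lists, at most the 3 genes of highest FPKM and the 3 of largest difference; of hosts listed at 0, at most 6. The ribosomal hosts named and rps-24 were chosen after their values were seen. Alternatives were the pseudocount (1 or 0.1), the FPKM minimum (1, 5 or none), the table, the overlap and peak thresholds and the nested length. Python 3.11.15, scipy 1.17.1, numpy 2.4.6, pandas 2.3.3 and matplotlib 3.10.9 were used.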

Additional observations from a re-analysis of the deposited data

How the results depend on the processing

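The host differences depended on the table and the pseudocount. On the log2 scale tct-1 moved from −5.90 to −9.20 with a pseudocount of 0.1 and to −0.22 with the authors' deposited comparison table, and ubl-1 from 2.65 to 0.18 with that table; the cause was not tested. The fold of the ubl-1 locus sum moved from 3.46 to 1.71 with that table, at an FPKM per implied fragment of ubl-1 that differed widely between the libraries. The snoRNA genes F25H2.14 and H06I04.8 kept their direction and size under both. Counts of genes at least 1 unit apart fell from 624 and 663 to 309 and 338 at an FPKM minimum of 5, which leaves fewer genes. Of the peaks of the set, 0 passed at a log2 fold of at least 3 and 4 at a −log10 p of at least 1.3 with a positive fold, against 1. That all 23 peaks touch a nested gene held when 50% of the peak or its midpoint was required, and for 22 when the whole peak was. Host loci with peaks that were listed at 0 numbered 529 with nested loci of at most 100 bases and 518 for protein-coding hosts of 60 to 500 base loci, a choice made after seeing the data, against 819. Ribosomal protein hosts with all peaks inside were 1, ubl-1, at 100 bases against 9 at 200. No paired analysis was possible because each group has 1 library. Depth limits H06I04.9, at 7 and 2 reads. The FPKM of ubl-1 is limited by wide bounds, which imply about 11 fragments per library.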

Other observations

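Among protein-coding hosts, chosen here after their values were seen, the confinement of peaks to nested loci was also found outside the ribosome. Peaks of both lists are counted together here, so they are not separate sites. In hsp-1, an HSP70-family chaperone gene at 43.5 FPKM with CAR-1(FL) and 43.6 with CAR-1(dSm), all 18 peaks touched its nested locus. In eef-1G, for a subunit of the elongation factor complex, with 2 nested loci, all 28 touched a nested locus, at 27.4 and 28.3 FPKM. In prp-8, for a core spliceosome protein with a locus of 7921 bases and 3 nested loci, all 21 did, at 3.36 and 3.09.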
